A study of Mus musculus with 4 samples.

Results

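The genes described here encode integrins, laminins and other proteins of the basement membrane, compared in tumorigenic and nontumorigenic sublines of mouse neural stem cells. The list names 36 genes, chosen by function and with results of these arrays already known. It holds 12 integrin alpha subunits, 8 integrin beta subunits, 10 laminin chains and 6 other genes (fibronectin, the nidogens Nid1 and Nid2, the proteoglycans perlecan and agrin, and dystroglycan). A probe set was named for 35 of them, out of 18193 genes with a probe set in all. Itga11 was not analysed here. Where a gene had several probe sets, the one with the highest mean signal was used. Genes entered the test when 2 or more arrays exceeded a signal of 5.97, the 40th percentile of all values. Of the 35 genes, 30 were tested, out of 13366 genes tested in all.

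Both sublines came from the telencephalon of C57BL/6 p53-/- mouse embryos at embryonic day 14.5. The cells grew as floating spheres in serum-free medium with PDGF and bFGF, received an activated HRas together with EGFP (pCMS-EGFP-HRasL61) and a neomycin resistance vector (pBabe-neo), and were sorted for GFP after drug selection. The tumorigenic subline, termed glioma-initiating cell-like (GIC), was measured on 2 arrays, and the nontumorigenic subline (non-GIC) on 2 arrays. The loss of p53 and the HRas vector are shared by both groups, and the labels do not say whether a subline is 1 clone or whether its 2 arrays came from separate cultures. The spread behind every p-value is thus the spread of these 4 arrays, which may be technical.

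Integrins are transmembrane receptors made of an alpha and a beta subunit that join the extracellular matrix to the actin cytoskeleton. Most alpha subunits of the list pair with the beta subunit encoded by Itgb1, and the alpha subunit sets the ligand, such as laminin, collagen or fibronectin. Laminins are trimers of an alpha, a beta and a gamma chain that polymerise into the basement membrane, where nidogen, perlecan and collagen IV join them, and dystroglycan is a laminin receptor outside the integrin family. In the embryonic telencephalon, neural stem cells contact a laminin-rich basement membrane through integrins.

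Promoter windows are shown for 4 members, Itga5 and Itgb1, whose products form the classical fibronectin receptor, Itga4, and Itgb5. The first 3 had lower signals on both GIC arrays and Itgb5 had higher ones. Each window holds the 250 bases before the annotated start, 5′ to 3′ on the gene's strand, from RefSeq (build GRCm38.p6), and capitals mark matches to a GC box, written GGGCGG. The Itga5 window lies at chr15:103366792-103367041 on the minus strand, that of Itgb1 at chr8:128685404-128685653 on the plus strand, that of Itga4 at chr2:79255176-79255425 on the plus strand, and that of Itgb5 at chr16:33829415-33829664 on the plus strand.
Itga5: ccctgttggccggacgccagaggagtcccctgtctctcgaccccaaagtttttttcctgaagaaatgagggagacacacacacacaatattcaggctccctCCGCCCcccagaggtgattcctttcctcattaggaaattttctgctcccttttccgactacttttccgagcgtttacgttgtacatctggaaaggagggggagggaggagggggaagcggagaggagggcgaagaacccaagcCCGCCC
Itgb1: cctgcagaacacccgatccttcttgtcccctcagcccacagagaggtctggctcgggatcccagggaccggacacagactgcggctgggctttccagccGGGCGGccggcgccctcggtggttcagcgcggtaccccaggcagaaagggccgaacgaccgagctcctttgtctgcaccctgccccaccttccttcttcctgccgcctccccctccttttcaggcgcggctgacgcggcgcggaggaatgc
Itga4: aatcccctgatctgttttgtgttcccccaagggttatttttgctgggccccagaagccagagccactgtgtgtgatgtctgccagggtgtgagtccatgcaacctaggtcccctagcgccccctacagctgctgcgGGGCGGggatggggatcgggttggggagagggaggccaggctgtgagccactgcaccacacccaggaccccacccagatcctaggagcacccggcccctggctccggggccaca
Itgb5: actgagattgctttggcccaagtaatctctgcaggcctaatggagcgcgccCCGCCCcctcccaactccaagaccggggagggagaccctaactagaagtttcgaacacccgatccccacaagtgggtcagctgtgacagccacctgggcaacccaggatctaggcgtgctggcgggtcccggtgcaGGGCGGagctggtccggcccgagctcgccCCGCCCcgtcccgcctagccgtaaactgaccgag
Searched on both strands, the window of Itga5 held 2 GC boxes, that of Itgb5 held 3, and those of Itgb1 and Itga4 held 1 each, with no overlap between matches. The GC box lay in 14 of the 29 windows found for 24 members, and in 32.7% of all 32851 windows of this length. None of the 4 windows held the CCAAT box (CCAAT, in 33.8% of all windows), the AP-1 site (TGANTCA, 6.75%) or the SOX core (AACAAT, 9.42%). These matches describe the letters of the windows only, and genes with lower and with higher signals in GIC carried GC boxes. None of the 4 genes passed the test described below, and no window was found for Itga7, the member that did.

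The design sets the tumorigenic subline against a nontumorigenic one with the same oncogene, and the question here is which adhesion and matrix genes differ. A single member passed the test. Itga7, the alpha subunit of a laminin receptor best known from muscle, rose in GIC, while the signals of Itga4, Itga5, Itga6, Itgb1 and Nid1 lay lower on both GIC arrays and missed the threshold. The laminin chains showed small mean differences. The test was limma's moderated test over all tested genes with Benjamini-Hochberg adjustment, at a threshold of 0.05. Of 30 tested members, 1 was higher and 0 were lower in GIC, and over all tested genes 1.92% were called, 1.23% higher and 0.688% lower. A count of 1 in 30 is near that background. At an unadjusted p under 0.05, 2 members were higher and 5 lower, where all tested genes gave 9.75% higher and 8.1% lower. A mean difference of at least 1 on the log2 scale was seen in 2 members with GIC higher (Itga7 and Itga8) and 3 with GIC lower (Itga1, Itga4 and Itga5), where the shares of all tested genes were 4.37% and 2.26%. The median difference over the tested members was -0.0055 on the log2 scale, and over all tested genes it was -0.012. In bulk samples, fewer cells of a type and less RNA per cell cannot be told apart.

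**Figure D1:**
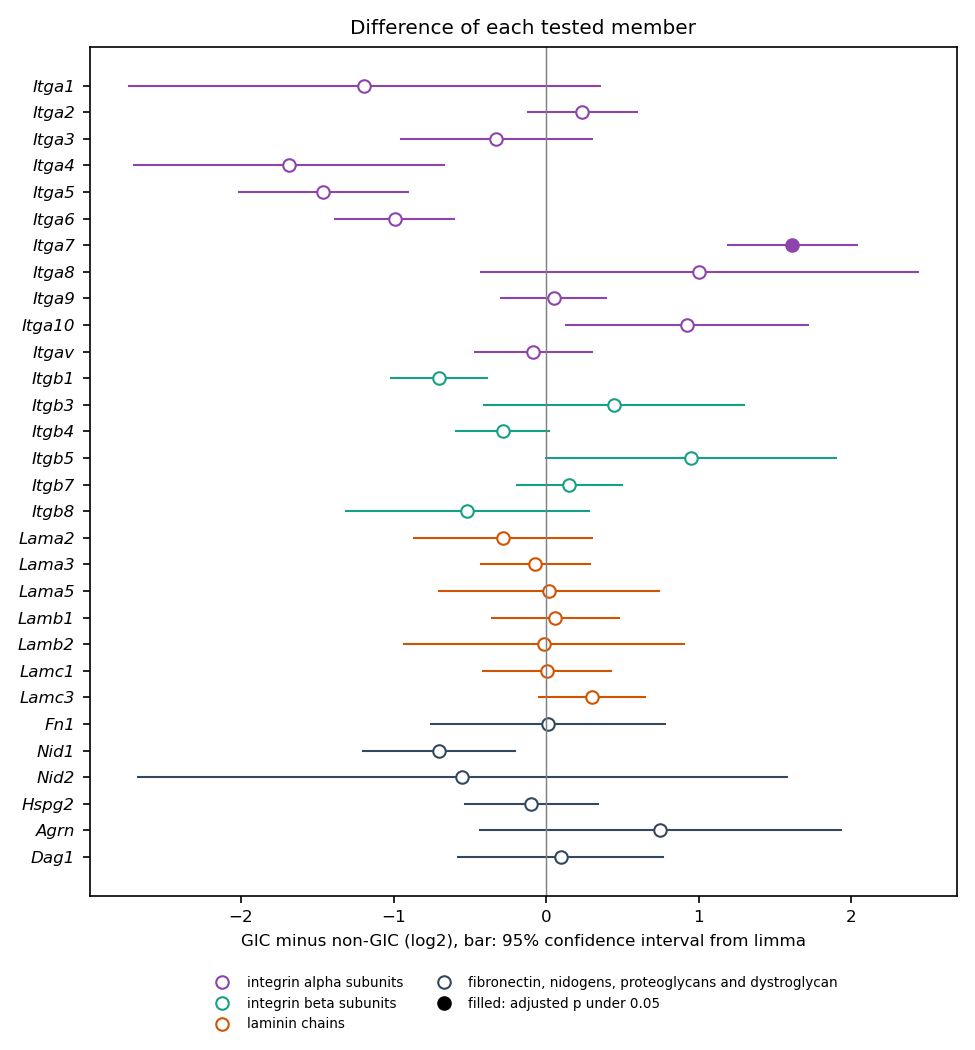
Difference in log2 signal, GIC minus non-GIC, for the 30 tested members in the order of the list (circles), with the 95% confidence interval from limma (bars). Only the circle of Itga7, at 1.61, is filled for an adjusted p under the threshold, and the circles of all 7 laminin chains lie between -0.28 and 0.30.

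The laminin receptors differed in direction among themselves. Itga7 had a signal of 10.38 and 10.34 on the GIC arrays, and of 8.68 and 8.82 on the non-GIC arrays. The groups were separated by 1.52 log2 units, while the arrays of a group lay at most 0.14 apart. The difference was 1.61 (SE 0.16, limma adjusted p = 0.0304), or 3.06-fold higher in GIC. Itga7 lies on chromosome 10 and rests on a single probe set, of a type that can bind several transcripts, so no second probe set could check it. Its difference was 1.54 to 1.69 with any 1 array left out, but the adjusted p was then 0.0656 to 0.187 and no longer passed.

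Itga6, the alpha subunit of a laminin receptor that is widely used to mark stem cells, went the other way. It had 11.22 and 11.36 in GIC, against 12.22 and 12.33 in non-GIC. At -0.99 (SE 0.15, limma adjusted p = 0.0602), 1.99-fold lower in GIC, it missed the threshold. Both of its probe sets above the filter level were lower, by -1.08 and -0.99. The third laminin-binding alpha subunit, Itga3, had a mean of 10.93 ± 0.41 (SD, n = 2) in GIC, against 11.26 ± 0.02 (SD, n = 2) in non-GIC. GIC replicate 2 of Itga3 lay at 11.22, within 0.03 of the non-GIC arrays, so its separation rests on GIC replicate 1. Itgb4, the beta subunit of hemidesmosomes that pairs with Itga6, lay near the filter level, at 6.19 and 6.00 in GIC and 6.35 and 6.42 in non-GIC.

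The subunits of the classical fibronectin receptor both had lower signals on the GIC arrays, and neither passed the threshold in the main fit. Itga5 had 9.53 and 9.09 in GIC, against 10.81 and 10.73 in non-GIC. The gap of 1.21 between the groups was wider than the 0.44 between the GIC arrays. It was 2.75-fold lower (-1.46, SE 0.21, limma adjusted p = 0.0553), with a 95% confidence interval of -2.01 to -0.91. The call changed with the choice of probe set. With the mean of its 4 probe sets the difference was -0.90 (limma adjusted p = 0.0465). That mean takes in probe sets below the filter level on every array, which gave -0.55 and -0.29. With only probe sets designed for 1 transcript the difference of Itga5 was -1.30 (limma adjusted p = 0.0489). Itgb1, the shared beta partner, had 12.73 and 12.66 in GIC, against 13.36 and 13.44 in non-GIC. It was 1.63-fold lower (-0.70, SE 0.12, limma adjusted p = 0.0778). The groups of Itgb1 did not overlap in the 3 probe sets above the filter level in both sublines, which gave -0.79 to -0.70. A 4th probe set passed through the non-GIC arrays alone, which fixed its direction.

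Among the other receptors for fibronectin and cell-surface ligands, Itga4, which binds fibronectin and Vcam1, had the lowest mean difference of the list. Its signal was 6.98 and 6.14 in GIC, against 7.86 and 8.62 in non-GIC. It differed by -1.68 (SE 0.39, limma adjusted p = 0.137), and the arrays of each group lay 0.76 or more apart. Its other 2 probe sets above the filter level passed through the non-GIC arrays alone, which fixed their direction, so no second probe set checks Itga4. Itga9, a receptor for tenascin and other matrix ligands, differed by 0.05 with overlapping groups. Itgav, the alpha subunit common to the vitronectin receptors, had a difference of -0.08 with a 95% confidence interval of -0.46 to 0.30. Itgb5, a beta partner of Itgav, had 13.21 and 12.18 in GIC, against 11.67 and 11.82 in non-GIC. GIC replicate 1 of Itgb5 stood 1.03 above GIC replicate 2, a spacing larger than the 0.36 between the groups, and the difference of 0.95 did not pass (SE 0.36, limma adjusted p = 0.280). Its 4 probe sets gave 0.94 to 1.03.

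**Figure D2:**
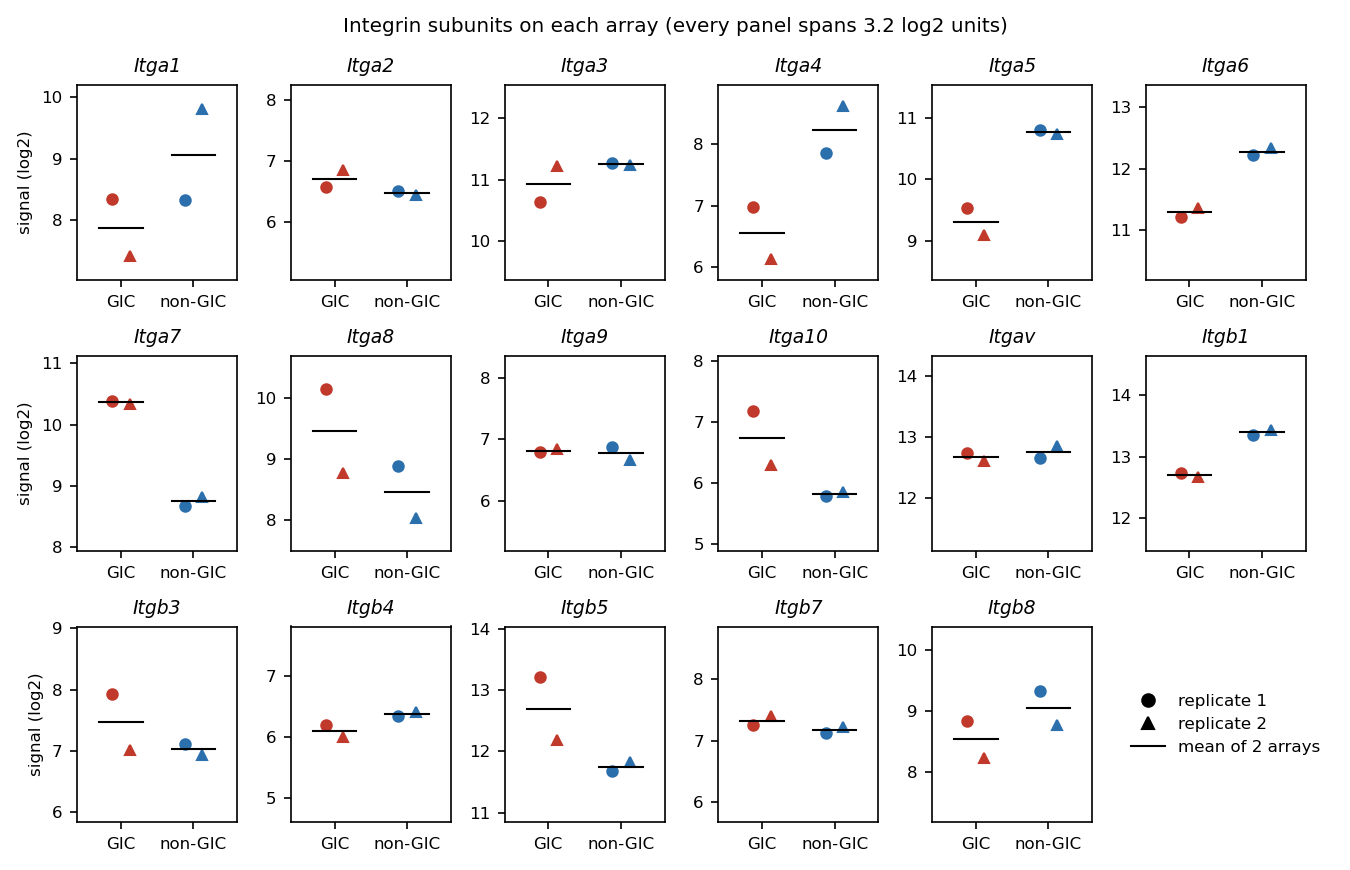
Signal (log2) of the 17 tested integrin subunits on each GIC array (red) and each non-GIC array (blue), with replicate 1 as circles, replicate 2 as triangles and the mean of the 2 arrays as a line; levels are not comparable between panels, since each is its own probe set. The arrays of a group nearly coincide for Itga6, Itga7 and Itgb1, whereas those of Itga8 and Itgb5 in GIC lie more than 1 log2 unit apart.

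The remaining integrins showed wide spread or low signal. Itga8, a receptor for nephronectin, had 10.15 and 8.77 in GIC and 8.88 and 8.03 in non-GIC. The groups overlapped, with GIC replicate 2 below non-GIC replicate 1, and the difference of 1.002 did not pass (SE 0.55, limma adjusted p = 0.423). The collagen receptor subunit Itga1 had 8.34 and 7.41 in GIC and 8.32 and 9.81 in non-GIC. Its difference was -1.19 (SE 0.59, limma adjusted p = 0.380), with non-GIC replicate 2 alone above the other 3 arrays. Another collagen-binding subunit, Itga10, had 7.18 and 6.30 in GIC and 5.79 and 5.86 in non-GIC. Since it passed the filter through the GIC arrays alone, it had to differ in level, and its 0.92 did not pass the test (limma adjusted p = 0.231). Itga2, the collagen receptor of platelets and epithelia, differed by 0.24. Itgb3, the beta partner of Itgav in the vitronectin receptor, had a difference of 0.44 that was -0.01 in its other probe set. Itgb8, which with Itgav activates latent TGF-beta, differed by -0.52 and Itgb7, a leukocyte subunit, by 0.15. The leukocyte subunit Itgb2 and the epithelial subunit Itgb6 lay below the filter level on every array and were not tested.

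The laminin chains were similar in mean between the sublines, with wider intervals for some chains. The 7 tested chains had differences of -0.28 (Lama2) to 0.30 (Lamc3), with a median of 0.0038. With limma 0 passed, adjusted or at an unadjusted p under 0.05. The shares of all tested genes were 1.92% and 17.9%, and a list of 7 is too short to set 0 apart from these. Lamc1, the gamma chain of most laminins, had 11.10 and 10.92 in GIC and 11.03 and 10.98 in non-GIC. Its difference of 0.0038 had a 95% confidence interval of -0.42 to 0.42. Lamb1, the beta chain of the early embryonic laminins, had a difference of 0.06 with an interval of -0.36 to 0.48. For Lama5, an alpha chain found in many basement membranes, the value was 0.02 with an interval of -0.70 to 0.74. Lamb2 had 10.03 and 9.66 in GIC and 9.41 and 10.31 in non-GIC. The non-GIC arrays of Lamb2 enclosed both GIC arrays, and its interval ran from -0.93 to 0.90. These intervals leave room for differences in either direction, so no equality is shown. Lama3, an alpha chain of epithelial laminin, lay near the filter level and differed by -0.07. Lama1, Lama4 and Lamb3 did not pass the filter, with signals of 4.62 to 5.98 over all arrays.

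Of the other matrix genes, Nid1, a nidogen that links laminin to collagen IV, had 11.58 and 11.38 in GIC and 12.01 and 12.36 in non-GIC. The groups did not overlap, and the difference was -0.70 (SE 0.19, limma adjusted p = 0.172). Its other probe set above the filter level gave -1.04. Nid2, its paralog, had 11.16 and 9.15 in GIC and 10.01 and 11.41 in non-GIC. Each group spanned more than 1 log2 unit, and leaving out 1 array at a time gave differences of Nid2 from -1.55 to 0.45. Fn1, fibronectin itself, had 14.11 and 13.33 in GIC and 13.54 and 13.88 in non-GIC, a difference of 0.0095 with an interval of -0.76 to 0.78. Its GIC arrays enclosed both non-GIC arrays, unlike the separated groups of its receptor subunits Itga5 and Itgb1. Hspg2, which encodes perlecan, differed by -0.10 and Dag1, dystroglycan, by 0.09, and both had overlapping groups in the probe set used. The other probe set of Hspg2 gave -0.41, with separated groups and GIC below. Agrn, agrin, had 10.73 and 9.43 in GIC and 9.26 and 9.40 in non-GIC, so that GIC replicate 2 lay within 0.03 of a non-GIC array. Its difference of 0.75 did not pass (limma adjusted p = 0.468).

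Most members with 2 or more probe sets above the filter level had the same direction in all of them. This held for 15 of 20 such members, and for 14 of 19 when probe sets that passed the filter through 1 subline alone were left out. The exceptions were Itgb3, Lama5, Lamb1, Fn1 and Dag1, each with a mean difference of 0.44 or less.

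**Figure D3:**
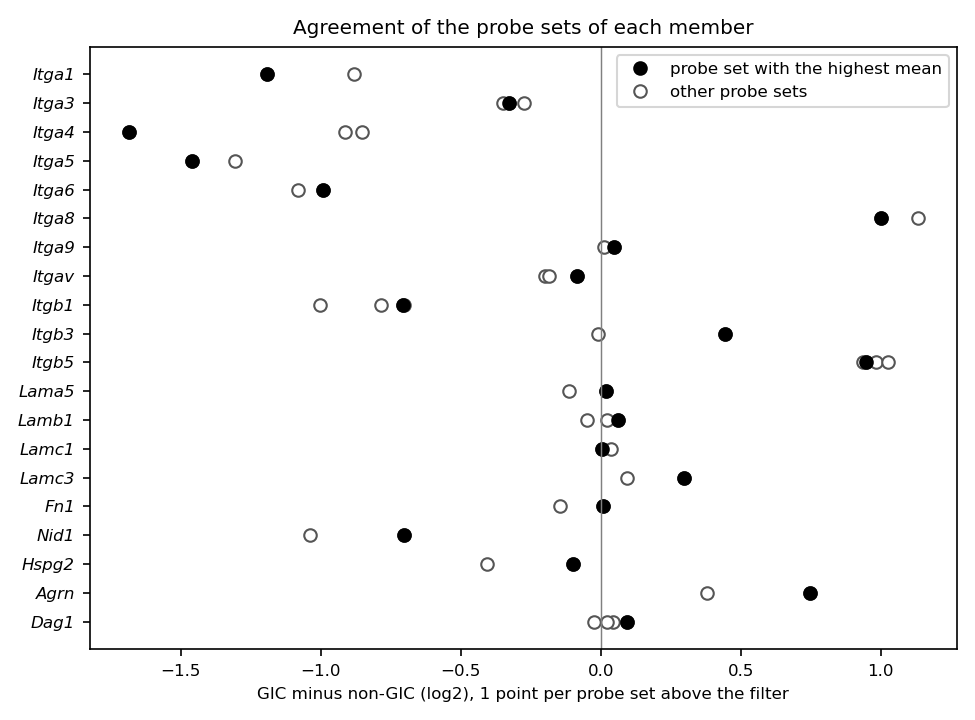
Difference in log2 signal, GIC minus non-GIC, of every probe set above the filter level for the 20 members that have at least 2 (filled: the probe set with the highest mean, open: the others). All points of Itga5, Itga6 and Nid1 lie below 0 and all points of Itga8, Itgb5 and Agrn above 0. The open points of Itga4 and 1 open point of Itgb1 had to lie below 0, since they passed the filter through non-GIC alone.

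The GIC arrays differed from each other in several of these genes. The signals of Nid2, Itga8, Agrn and Itgb5 were more than 1 log2 unit higher on GIC replicate 1 than on GIC replicate 2, by 2.01, 1.37, 1.30 and 1.03. These are 4 of 30 tested members, where 3.16% of all tested genes differed by at least 1 between the GIC arrays. Between the non-GIC arrays, Itga1 and Nid2 differed by that much, with replicate 2 the higher, and the share of all tested genes was 3.02%. GIC replicate 1 lay above GIC replicate 2 in 23 of 30 members, against 50.7% of all tested genes, and non-GIC replicate 1 lay above non-GIC replicate 2 in 13 of 30, against 51.9%. The list of mural and fibroblast markers, of which 7 of 9 were above the filter level, averaged 9.57 and 8.92 on the first and second GIC arrays, against 9.38 and 9.31 on the non-GIC arrays. Without Col1a1, left out after its values were seen (13.59 and 10.70 in GIC, 13.84 and 14.57 in non-GIC), the other 8 averaged 9.07 and 8.70 in GIC and 8.82 and 8.66 in non-GIC. Col1a2 ran the other way, with 11.54 and 11.72 on the GIC arrays. Rgs5 and Lum, which mark pericytes and fibroblasts, were below the filter level. The part of such cells in these differences was not tested. The groups did not overlap in 14 of 30 members, 7 with GIC above and 7 with GIC below, near the 50.4% of all tested genes.

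**Figure D4:**
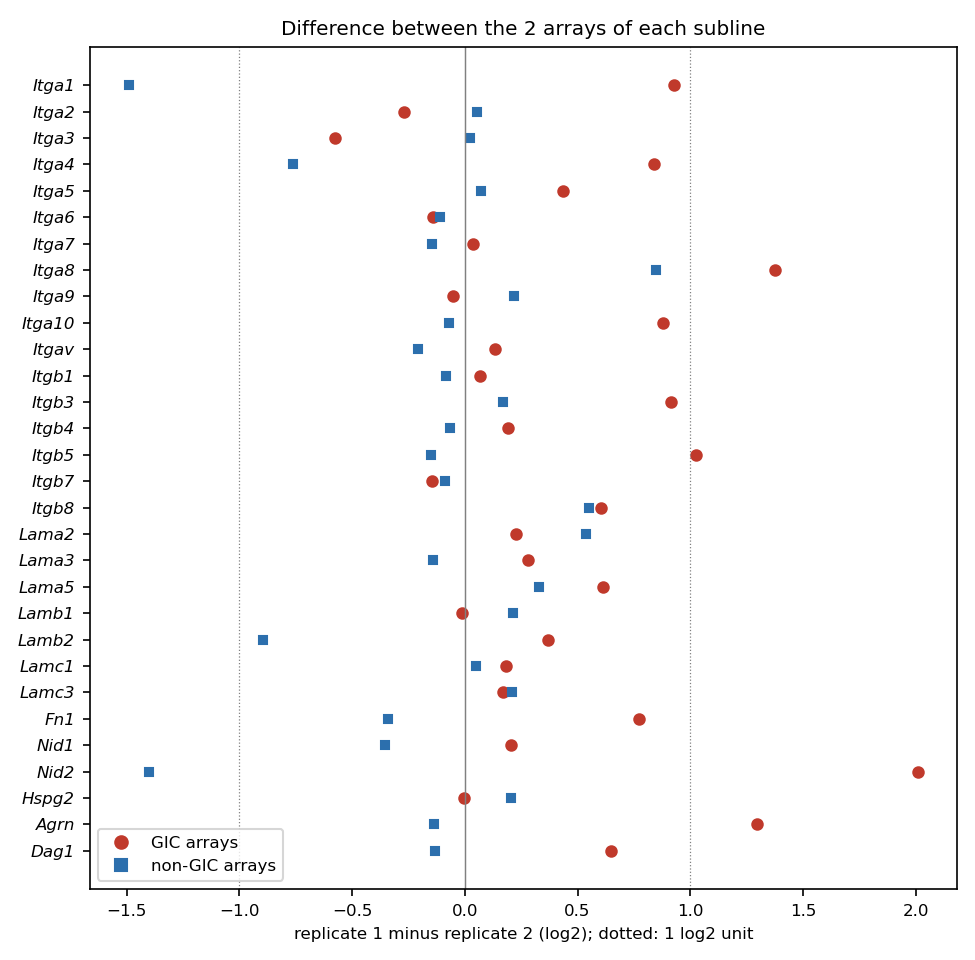
Difference in log2 signal between replicate 1 and replicate 2 of GIC (red circles) and of non-GIC (blue squares) for the 30 tested members. Nid2 has the widest spacing in GIC, at 2.01, and 23 of the 30 GIC points lie to the right of 0.

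Genes that act beside the integrins and in the basement membrane changed in single members. Over all tested genes, 1.23% were called higher and 0.688% lower. Of 27 tested adhesion adaptors, which couple integrin tails to actin and signalling, 0 passed with limma after adjustment, and 7 were lower and 1 higher at an unadjusted p under 0.05, where all tested genes gave 8.1% and 9.75%. The smallest p-values were those of Parvb, a parvin of the complex with integrin-linked kinase (-1.48, limma adjusted p = 0.0985), and Zyx, zyxin of focal adhesions (-0.76, limma adjusted p = 0.109). The groups were separated with GIC below in 15 of the 27 adaptors and with GIC above in 1, where 24.9% of all tested genes lay with GIC below and 25.5% with GIC above. The median difference of the adaptors was -0.23. Genes share arrays and are not independent, and these counts carried no test.

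Of 17 tested basement membrane collagens and associated proteins, Smoc2, a secreted calcium-binding matrix protein, rose and Col4a6, a collagen IV chain, fell. The share of all tested genes called in either direction was 1.92%. Smoc2 had 12.44 and 11.49 in GIC and 7.20 and 5.94 in non-GIC (difference 5.40, SE 0.54, limma adjusted p = 0.0302). Non-GIC replicate 2 of Smoc2 lay below the filter level, so its folds are given with that signal set to the level. Smoc2 was then at least 41.7-fold higher in GIC, at least 63.8-fold when non-GIC replicate 1 was left out, and 27.3-fold on leaving out replicate 2 of that subline. Col4a6 had 7.40 and 7.33 in GIC and 8.61 and 8.95 in non-GIC (difference -1.42, SE 0.18, limma adjusted p = 0.0428). The common collagen IV chains Col4a1 and Col4a2 differed by -0.58 and -0.24 and did not pass. Col18a1 and Fbln1 had wider differences than Col4a6, of -2.43 and 1.62, that did not pass either (limma adjusted p = 0.0833 and 0.137).

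Among 15 other matrix receptors and tetraspanins, the syndecan Sdc4, a co-receptor for fibronectin, had a called increase of 1.86 (SE 0.19, limma adjusted p = 0.0319) that was -0.12 with only probe sets designed for 1 transcript, so its direction depends on the probe set. This list and those of 18 and 14 genes that follow held 1 called gene each, where 1.92% of all tested genes were called. Of 18 genes of the dystrophin complex and of dystroglycan glycosylation, Dmd, dystrophin, fell. It had 5.67 and 6.07 in GIC and 7.43 and 7.82 in non-GIC (difference -1.76, SE 0.21, limma adjusted p = 0.0375). Of 14 other integrin ligands, Ccn2, a matricellular growth factor, rose to 12.59 on both GIC arrays, against 10.37 and 10.66 on the non-GIC arrays (difference 2.07, SE 0.17, limma adjusted p = 0.0194). The median difference of these ligands was 0.94, where that of all tested genes was -0.012. The groups were separated with GIC above in 9 of 14 and with GIC below in 2, where the shares of all tested genes were 25.5% and 24.9%. GIC replicate 1 lay above GIC replicate 2 in 12 of 14 ligands, against 50.7% of all tested genes. Non-GIC replicate 1 lay above non-GIC replicate 2 in 2 of 14, against 51.9%. Measured from each gene's mean over the 4 arrays, the ligands averaged 0.68 and 0.09 on the GIC arrays. They averaged -0.64 and -0.13 on the non-GIC arrays. The labels do not pair the replicate numbers across the sublines. These counts carried no test. Vcam1, the cell-surface ligand of Itga4, had a difference of -1.39 (limma adjusted p = 0.0559). Of 3 tested leukocyte and platelet integrins outside the list, 0 passed with limma and 1 had an unadjusted p under 0.05, where the share of all tested genes was 17.9%. Itgal, Itga2b and Itgax had differences of -0.70, -0.07 and 0.03. With 1 array left out, Col4a6 and Dmd kept their direction but not their call, and Smoc2, Ccn2 and Sdc4 kept the call in 1 of the 4 fits, the one without GIC replicate 2.

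**Figure D5:**
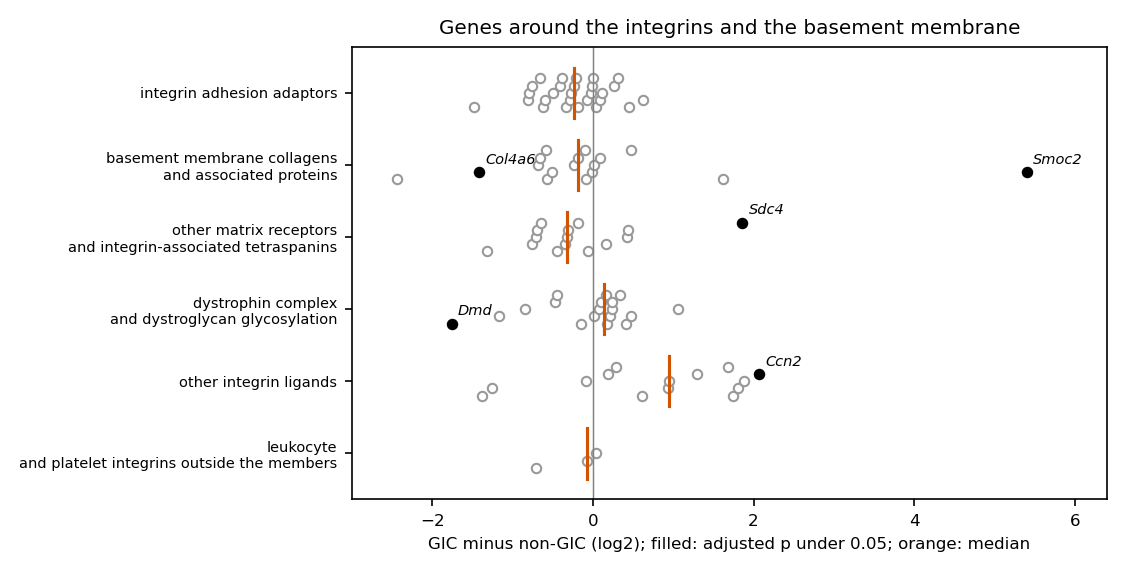
Difference in log2 signal, GIC minus non-GIC, of each tested gene in 6 lists of genes around the integrins (circles), with the list's median (orange line); filled and named circles had an adjusted p under the threshold. The adaptors lie mostly below 0 with a median of -0.23, the other integrin ligands mostly above with 0.94, and Smoc2 stands apart at 5.40.

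The array medians of the deposited values lay between 6.58 and 6.63. Of 9 tested neural stem cell and radial glial markers, 4 had separated groups with GIC below (Nes, Sox2, Pax6 and Fabp7), and 0 with GIC above. The shares of all tested genes were 24.9% with GIC below and 25.5% with GIC above, and these marker counts carried no test. Nes fell in GIC (-2.07, limma adjusted p = 0.0459). Sox2 averaged 10.40 on the GIC arrays, against 11.30 for non-GIC. Its difference of -0.90 did not pass (limma adjusted p = 0.144), and neither did the -0.44 of Pax6 (limma adjusted p = 0.361). Vim averaged 14.60 on the GIC arrays, against 14.61 for non-GIC, with overlapping groups. Fabp7 had a signal of 5.23 on both arrays of GIC, against 6.58 and 6.89 in non-GIC. It passed the filter through non-GIC alone, which fixed its direction. Prom1 was below the filter level on all arrays. Of the markers of other cells, 4 of 7 endothelial, 4 of 7 microglial and leukocyte and 3 of 6 epithelial markers were below the filter. Of the mural and fibroblast markers, Acta2 fell (-1.71, limma adjusted p = 0.0348). Col1a1, Col1a2 and Dcn had differences of -2.06, 1.26 and 0.52 that did not pass. The GIC arrays of Col1a1 lay 2.89 apart, and the non-GIC arrays of Col1a2 lay 2.18 apart. Of the 3 tested microglial and leukocyte markers, Cd14 rose (1.30, limma adjusted p = 0.037). The other tested markers, Cd68 and Csf1r, had differences of 0.53 and -0.30 that did not pass. The part of these in any difference above was not tested.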

How the data were processed

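RNA of 2 GIC and 2 non-GIC samples was biotin-labelled by in vitro transcription and measured on oligonucleotide arrays, per the labels' protocols. The deposited table holds 1 value on a log2 scale for each of 45101 probe sets and array; the base was read from the values, which run from 2.75 to 15.12. How the signals were background-corrected, summarised and normalized is not given in the sources used here, and the array percentiles from 5 to 95 that were compared lay within 0.073 of each other. Probe sets were named through the platform annotation, with symbols updated by identifier to the gene table of GRCm38.p6 for 34741 of 34945 probe sets with 1 gene. Another 932 with several genes, 9160 without a name and 64 controls were left out.

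Differences were fitted with limma 3.58.1 in R 4.3.3 (lmFit, eBayes with trend, on group alone; two-sided tests) with Benjamini-Hochberg adjustment over 13366 genes. The fit had 2 residual and 2.72 prior degrees of freedom. An exact permutation test of 2 against 2 arrays cannot go below p = 0.33. The number of arrays limits the precision. No array pair held identical values (0 pairs). The fit was tested on simulated data. The members and lists were chosen with earlier results of these data known. All members are accounted for; from each pathway list the genes past the threshold, or else the genes with the smallest p, are named. Alternatives changed the scaling (quantile, median centring), the filter (none, or the 60th percentile), the probe sets (their mean per gene, or only those designed for 1 transcript), eBayes (no trend, or robust), the replicate block and the arrays, left out in turn. Figures used matplotlib 3.10.9 in Python 3.11.15.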

Additional observations from a re-analysis of the deposited data

How the results depend on the processing

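Quantile normalization, median centring, no filter, a filter at the 60th percentile and robust eBayes left the count of members at 1 higher and 0 lower in GIC, as did eBayes without a trend. With the replicate block 0 members were higher (limma adjusted p = 0.143 for Itga7), and with only probe sets designed for 1 transcript 0 were higher, since Itga7 has no other probe set. With those, and with probe sets averaged per gene, 1 member was lower (Itga5). With 1 array left out, 0 members were higher and 0 lower in each of the 4 fits. Sdc4 turned to -0.12 with only probe sets designed for 1 transcript. The main fit called 1.23% of all tested genes higher and 0.688% lower. Pathway genes were 3 higher and 2 lower in that fit, with 27, 17, 15, 18, 14 and 3 tested in the lists. They were 1 higher and 0 lower with the replicate block, 1 lower with eBayes without a trend (Dmd lost its call), and 0 to 4 higher and 0 lower with 1 array left out. Over all genes, 165 were higher and 92 lower. The replicate block gave 21 and 8, and leaving out 1 array gave 5 to 142 higher and 7 to 46 lower. The labels' replicate numbers share no stated batch, and the differences between replicates 1 and 2 correlated across genes at -0.324 between the sublines; a crossed block, added after seeing the data, gave 457 genes higher and 228 lower, 1 member higher and 4 lower, and 10 pathway genes higher and 8 lower. The sign of 12 of 30 members changed in at least 1 alternative or probe set, all of them uncalled; Itga1, Itga4, Itga5, Itga6, Itga7, Itgb1, Itgb5 and Nid1 were among the 18 that kept theirs. A lone array of a group was taken to vary as the arrays of the other group did. Signals near the filter level carry background, which can understate a difference.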
